A study of Homo sapiens with 6 samples.

Results

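The genes of fatty acid oxidation and ketone body synthesis were examined in Hep-G2 cells with and without a hairpin against CLGN. The list held 36 genes, chosen by name from the 58735 genes of the expression table. The rule uses no measured value, but the list was made with earlier results of these data known. Hep-G2 is an established human liver cancer line; by genotype the sh-NC samples are labelled WT and the sh-CLGN samples CLGN knock down. Cells in one group carried sh-CLGN, a lentiviral short hairpin RNA against CLGN, and cells in the other carried sh-NC, a negative control hairpin; per the study's methods both were selected with puromycin. Each group held 3 libraries, all 6 with the same batch label, and the labels name no other drug or stimulus. The product of CLGN, calmegin, is an endoplasmic reticulum chaperone. One hairpin was used per group, so the loss of CLGN cannot be told apart from other differences between the cultures or hairpins.

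Fatty acids are activated to acyl-CoA, passed into mitochondria through carnitine esters, and shortened in repeated rounds of dehydrogenation, hydration, a further dehydrogenation and thiolysis. Electrons leave the first step through the electron transfer flavoprotein, very long and branched chains are first shortened in peroxisomes, and hepatocytes turn surplus acetyl-CoA into ketone bodies. In the liver much of the program is under the nuclear receptor PPARA, which responds to fatty acids and is active in fasting.

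Levels are FPKM, in which the fragments of a gene are divided by its length and by a library size, so that levels can be compared between genes. The library size behind the deposited values was not the read total. For replicates 1, 2 and 3 it was 0.933, 0.940 and 0.953 times the reads in sh-NC and 1.08, 1.08 and 1.07 times in sh-CLGN. Relative to sh-NC, every gene in sh-CLGN was therefore lower in these FPKM than under scaling by read totals. Log2 fold changes are sh-CLGN minus sh-NC on the log2(FPKM + 1) scale, which understates changes of genes with low levels. A gene was tested with limma where 3 or more of the 6 libraries reached 1 FPKM, which left 13074 genes, and a gene was called at a Benjamini-Hochberg adjusted p of at most 0.05. The labels do not say whether the libraries of a group came from separate cultures, so p-values measure the spread between these libraries, which may be technical.

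CLGN itself was at 24.1, 21.0 and 26.1 FPKM in the sh-NC libraries and at 9.48, 8.88 and 8.60 FPKM in the sh-CLGN libraries (here and throughout in the order of replicates 1, 2 and 3), or 37.8% of the control mean (log2 fold change -1.31, SE 0.081, limma adjusted p = 8.35e-06). Libraries held 14955816 to 16244639 reads. Mitochondrial reads made up 3.25% to 4.02% of sh-NC and 5.49% to 5.80% of sh-CLGN libraries, and the log2 fold change across genes fell with GC content (Spearman's rho -0.32, a description across genes, which are not independent). All 15 hepatocyte markers passed the filter, 6 of them higher and 8 lower in sh-CLGN, among them AFP from 2670 ± 105 to 3782 ± 145 FPKM and ALB from 2007 ± 70.9 to 1076 ± 27.7 FPKM (SD, n = 3). Of 10 fibroblast markers, 5 were tested and called higher, of which COL1A1, LUM and COL3A1 passed the filter only through sh-CLGN and so had to be higher, and the call of PDGFRB was lost under the replicate block, among other settings. The list summed to 7.17 to 8.51 FPKM in sh-NC and 48.5 to 49.9 FPKM in sh-CLGN, mostly COL1A2, while FAP and POSTN were at 0 in every library. From sh-NC to sh-CLGN the sum of leukocyte markers went from 73.0 ± 3.88 to 64.1 ± 3.58 FPKM, nearly all from LYZ, and that of endothelial markers from 3.52 ± 0.158 to 2.53 ± 0.136 FPKM, with KDR at 0 in every library. The part of these differences in the results was not tested, and in bulk libraries fewer cells with a transcript and less transcript per cell cannot be told apart.

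Of the 36 genes, 32 passed the filter; 18 were lower in sh-CLGN, 4 were higher and 10 were not called. Over all tested genes 39.0% were called lower and 26.7% higher, beside 56.2% lower and 12.5% higher in the list. The gap nearly closed under quantile normalization, with 34.4% of the list lower (11 genes) against 32.5% of all genes and 28.1% higher (9 genes) against 30.2%. It remained under read totals, with 40.6% lower against 26.2% and 28.1% higher (9 genes) against 37.9%. Under TPM scaling 46.9% was lower against 30.0% and 21.9% higher against 32.8%. With the GC trend removed 56.2% was lower against 34.2% and 15.6% higher against 32.8%. With a threshold of 1 on the absolute log2 fold change added, 3 genes remained, SLC27A2, ACSL3 and CPT1A, all lower (background 3.19% lower and 3.09% higher). The sh-NC and sh-CLGN libraries did not overlap for the same 18 lower and 4 higher genes (background 41.5% and 28.7%). One of the 4 higher genes, PDK4, passed the filter only through the sh-CLGN libraries and had to differ for that reason; without it 3 of 31 tested genes were higher. The median log2 fold change of the 32 tested genes was -0.25, against -0.08 over all tested genes. After a GC trend was removed from each library the medians were -0.15 and -0.0031. After scaling by read totals, which raises all genes of sh-CLGN relative to sh-NC, they were -0.08 and 0.08. Read totals brought the log2 fold changes of CPT2 and HADH to -0.28 and that of PPARA to -0.23, all still called.

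**Figure D1:**
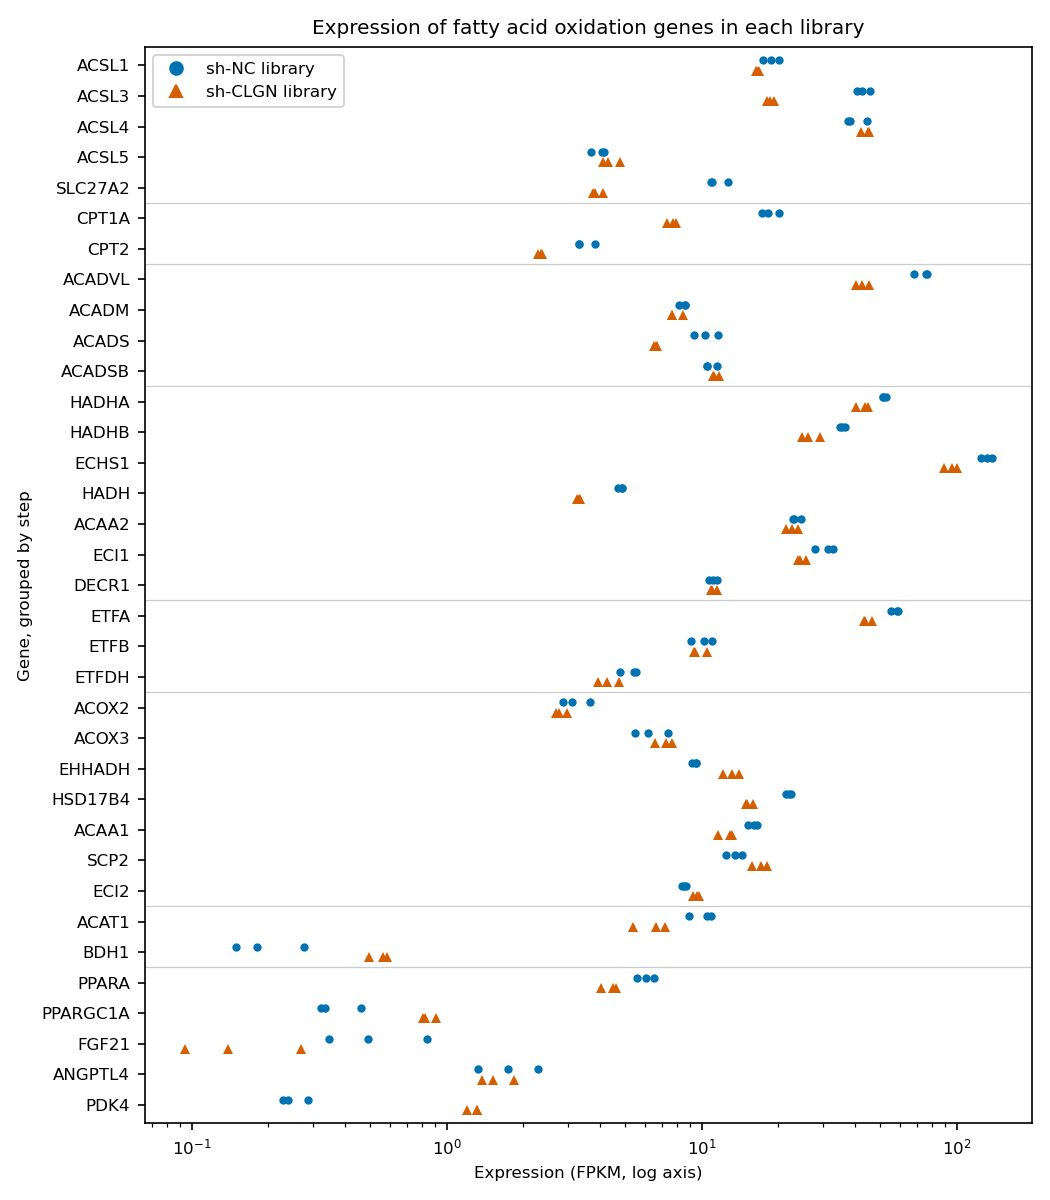
Expression of 35 genes in each library, as FPKM on a log axis, with genes grouped by step from uptake at the top to regulators at the bottom. Circles are the 3 sh-NC libraries and triangles the 3 sh-CLGN libraries; values of 0 cannot be drawn on a log axis, and CYP4A11, with 1 read in 1 library, is left out. The triangles of SLC27A2, ACSL3 and CPT1A lie well to the left of the circles, and those of PDK4 to the right.

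SLC27A2, ACSL3 and CPT1A stood out by size, and the bases just before their first annotated position are shown to place them in the genome. Each stretch is 100 bases long, from RefSeq promoter windows on GRCh38.p14, reads 5′ to 3′ on the strand of its gene, ends at the base before the outermost GENCODE 29 start and overlaps no annotated exon. Capitals mark GGGCGG or its reverse complement, the GC box bound by Sp family factors.

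SLC27A2, chr15:50182096-50182195, plus strand: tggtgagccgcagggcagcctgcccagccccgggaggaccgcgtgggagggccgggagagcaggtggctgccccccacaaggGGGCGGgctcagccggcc
ACSL3, chr2:222860834-222860933, plus strand: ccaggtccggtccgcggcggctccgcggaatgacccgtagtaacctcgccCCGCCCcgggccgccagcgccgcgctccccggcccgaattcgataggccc
CPT1A, chr11:68844411-68844510, minus strand: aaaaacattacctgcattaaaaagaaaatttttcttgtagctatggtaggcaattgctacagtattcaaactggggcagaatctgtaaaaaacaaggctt

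The first 2 stretches were 79% and 77% G and C and held 1 GC box each, whereas that of CPT1A was 33% G and C and held none. Whether the outermost start is the one used in these cells was not tested for any of these genes. RefSeq windows, from 250 bases before to 50 after a start, were found for 30 of the 36 genes (45 windows, of 35116 for all genes). GGGCGG on either strand was found in 31 of the 45 windows (26 genes), and in 45% of all windows. CCAAT, also on either strand, was found in 8 of the 45 windows (ACAT1, ACSL1, ACSL3, ETFA, ETFB, HADH, PDK4 and PPARA, 1 window each) and in 34.6% of all windows. AGGTCANAGGTCA, the direct repeat read by PPARA with its partner RXR, was found in none of the 45 windows and in 0.0228% of all windows, and its looser form AGGNCANAGGNCA in none and in 0.31%. No match says only that these letters were not in these windows.

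Among the 5 genes of activation and uptake, 3 were lower and none was called higher. This and the other counts by step rest on few genes, beside 39.0% lower and 26.7% higher over all tested genes. SLC27A2 (ENSG00000140284, chr15:50182196-50236395) encodes a liver fatty acid transport protein that also activates very long chains. SLC27A2 stood at 11.0, 10.9 and 12.7 FPKM in the sh-NC libraries and 4.10, 3.81 and 3.76 FPKM in the sh-CLGN libraries. The level in sh-CLGN was 33.7% of that in sh-NC (log2 fold change -1.36, SE 0.072, limma adjusted p = 4.74e-06), with every sh-CLGN library below every sh-NC library. ACSL3 (ENSG00000123983, chr2:222860934-222944639) encodes an acyl-CoA synthetase of the endoplasmic reticulum and lipid droplets. It was at 40.8, 42.5 and 45.6 FPKM in the sh-NC libraries and 19.3, 18.1 and 18.5 FPKM in the sh-CLGN libraries (log2 fold change -1.16, SE 0.056, adjusted p = 3.16e-06). The sh-CLGN libraries of ACSL3 were close to each other and far below the controls.

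ACSL1, the main acyl-CoA synthetase of liver and fat, fell from 18.7 ± 1.32 to 16.5 ± 0.183 FPKM (SD, n = 3; log2 fold change -0.17, adjusted p = 0.0344), a call that was lost with the replicate block and with any library other than sh-NC replicate 1 left out, and whose sign turned to 0.05 under quantile normalization and 0.02 under read totals. The ACSL1 call was also lost under TPM scaling, with no filter, and in limma without trend. ACSL4, which prefers arachidonate, and ACSL5, of the outer mitochondrial membrane and endoplasmic reticulum, were not called. ACSL4 was at 40.1 ± 3.93 FPKM in sh-NC and 44.2 ± 1.69 FPKM in sh-CLGN, with a 95% interval of the log2 fold change of -0.03 to 0.31, and the interval of ACSL5 was -0.06 to 0.28.

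Within each library the 4 ACSL transcripts were also set against their sum, which removes any difference in scaling between libraries. ACSL3 made up 40.5, 41.5 and 39.9% of the summed ACSL FPKM in the sh-NC libraries and 23.5, 21.5 and 21.8% in the sh-CLGN libraries. ACSL4 went from 37.9 ± 1.21% to 52.8 ± 1.15% of the sum (SD, n = 3) and was the larger of the pair in all 3 sh-CLGN libraries, whereas ACSL3 was the larger in all 3 sh-NC libraries. The shares did not overlap between groups for any of the 4 genes, and a two-sided exact permutation test gave p = 0.1 for each of 12 quantities (4 ratios of gene pairs, these 4 shares, and the shares in reads), the smallest value that 3 against 3 libraries allow, which adjustment over the 12 leaves as it is. Shares of a sum are tied to each other, so a larger share of ACSL4 shows unequal change and not a rise of its own.

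**Figure D2:**
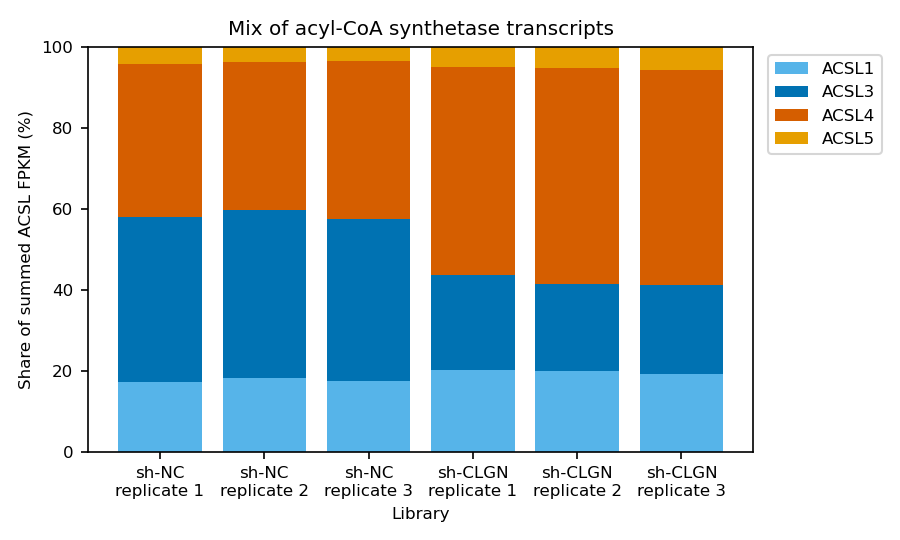
Share of each ACSL transcript in the summed ACSL FPKM, in percent, with 1 bar per library. The ACSL3 section shrinks from about 40.6% in the 3 sh-NC libraries to about 22.3% in the 3 sh-CLGN libraries, and the ACSL4 section grows from 37.9% to 52.8%.

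Both genes of the carnitine shuttle were lower. CPT1A (ENSG00000110090, chr11:68754620-68844410) encodes the liver form of the enzyme that attaches long-chain acyl groups to carnitine at the outer mitochondrial membrane, the step that controls the rate of entry. CPT1A was at 18.2, 20.04 and 17.2 FPKM in the sh-NC libraries and 7.32, 7.73 and 7.95 FPKM in the sh-CLGN libraries, or 41.5% of control (log2 fold change -1.17, SE 0.067, limma adjusted p = 6.03e-06). The highest sh-CLGN library was far below the lowest sh-NC library. CPT2, the inner membrane enzyme that returns the acyl group to CoA, was at 3.30, 3.81 and 3.31 FPKM in the sh-NC libraries and 2.36, 2.33 and 2.28 FPKM in the sh-CLGN libraries (log2 fold change -0.43, SE 0.072, adjusted p = 0.00116). Its groups did not overlap either, at a smaller difference. The log2 ratio of CPT1A to CPT2 within a library was 2.41 ± 0.0452 with sh-NC and 1.72 ± 0.0857 with sh-CLGN (SD, n = 3, exact permutation p = 0.1).

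**Figure D3:**
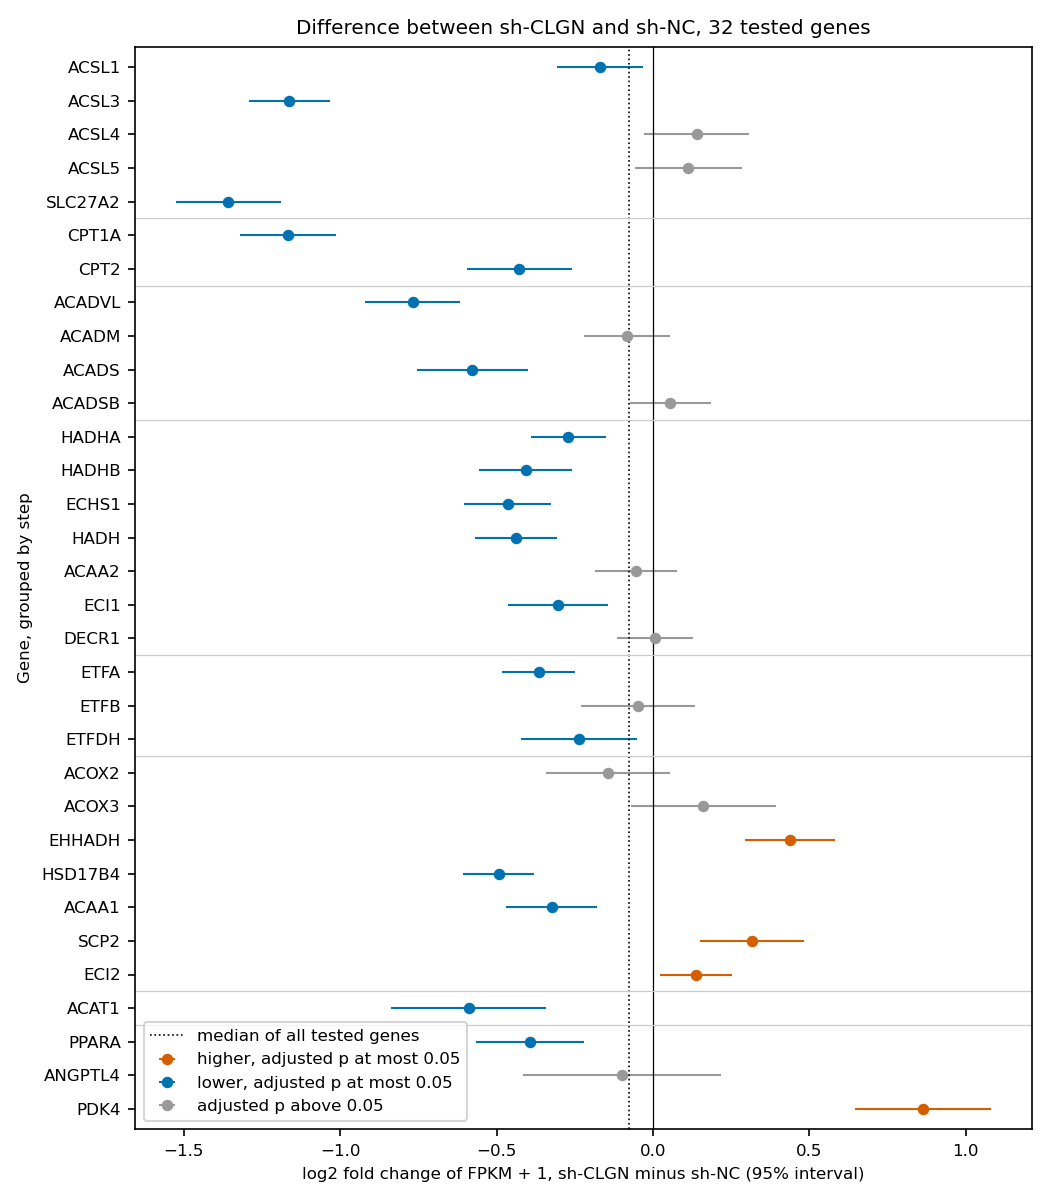
Log2 fold change of FPKM + 1 with its 95% interval for the 32 tested genes, grouped by step, with calls in colour and genes not called in grey. The dotted line is the median of all tested genes, -0.08; the 18 lower genes lie to its left, and the 4 higher genes are EHHADH, SCP2, ECI2 and PDK4.

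Of 4 acyl-CoA dehydrogenases, which catalyse the first oxidation and differ in chain length, the very long and short chain enzymes were lower and the other 2 were not called. ACADVL, for very long chains, was at 76.0, 76.7 and 68.1 FPKM in the sh-NC libraries and 42.6, 40.3 and 45.4 FPKM in the sh-CLGN libraries (log2 fold change -0.77, SE 0.066, limma adjusted p = 3.52e-05). ACADS, for short chains, was at 11.6, 10.3 and 9.32 FPKM in the sh-NC libraries and 6.68, 6.52 and 6.64 FPKM in the sh-CLGN libraries (log2 fold change -0.58, SE 0.077, adjusted p = 0.000331). No library overlapped between groups for either gene. Both transcripts were rich in G and C (58.8% and 64.6%, against a median of 48.1% over all tested genes), and with the GC trend removed their log2 fold changes were -0.52 and -0.27, still called. ACADM, for medium chains, had 8.47 ± 0.259 FPKM in sh-NC and 7.94 ± 0.466 FPKM in sh-CLGN, with an interval of -0.22 to 0.05 on the log2 scale. ACADSB, for short branched chains from isoleucine, had an interval of -0.07 to 0.19.

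The next 7 genes carry the acyl chain from hydration to thiolysis in mitochondria, or prepare unsaturated chains for it; 5 were lower and 2 were not called. ECHS1, the short-chain enoyl-CoA hydratase and the most abundant of all 36 transcripts, was at 132, 137 and 125.1 FPKM in the sh-NC libraries and 100, 96.1 and 89.1 FPKM in the sh-CLGN libraries (log2 fold change -0.46, SE 0.060, limma adjusted p = 0.000272), a difference that shrank to -0.21 with the GC trend removed and to -0.14 under quantile normalization, still called. HADH, the short-chain 3-hydroxyacyl-CoA dehydrogenase, was at 4.71, 4.85 and 4.87 FPKM in the sh-NC libraries and 3.29, 3.33 and 3.25 FPKM in the sh-CLGN libraries (log2 fold change -0.44, SE 0.056, adjusted p = 0.000283). For both genes the groups were apart, and the libraries of HADH were tight within each group. ECI1, an isomerase for unsaturated chains, fell from 30.7 ± 2.62 to 24.6 ± 0.955 FPKM (adjusted p = 0.00523), but with the GC trend removed it was at -0.04 on the log2 scale and no longer called. The ECI1 call was also lost under quantile normalization and read totals. ACAA2, the medium-chain thiolase, and DECR1, a reductase for unsaturated chains, were not called, with intervals of -0.18 to 0.08 and -0.11 to 0.13.

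HADHA and HADHB encode the alpha and beta subunits of the mitochondrial trifunctional protein, which acts on long chains, and lie head to head on chromosome 2 (HADHA, chr2:26190635-26244726, minus strand; HADHB, chr2:26243170-26290468, plus strand; GRCh38). Between the annotated first exons that face each other, only 21 bases are free of any exon, shown on the plus strand (GRCh38.p14) because the transcripts of both genes run away from them, except for 1 HADHB transcript annotated from a start inside HADHA.

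HADHA and HADHB, chr2:26244727-26244747: ccggccccttagccctgcccc

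HADHA was at 51.6, 51.7 and 52.7 FPKM in the sh-NC libraries and 43.8, 44.8 and 40.3 FPKM in the sh-CLGN libraries (log2 fold change -0.27, SE 0.052, limma adjusted p = 0.00226), a difference that vanished under quantile normalization (log2 fold change 0.0063) and lost its call under TPM and read totals. HADHB was at 34.9, 35.4 and 36.4 FPKM in the sh-NC libraries and 29.1, 26.2 and 24.7 FPKM in the sh-CLGN libraries (log2 fold change -0.41, SE 0.064, adjusted p = 0.000806), and its call was lost under quantile normalization (log2 fold change -0.13). The groups did not overlap for either subunit. In each library the log2 ratio of HADHA to HADHB was 0.563, 0.544 and 0.534 in the sh-NC libraries and 0.591, 0.774 and 0.707 in the sh-CLGN libraries (exact permutation p = 0.1), higher in every sh-CLGN library. The annotated genes overlap on opposite strands and the strand setting of the counting was not given in the sources used here, so reads in the overlap cannot be assigned to one gene with certainty.

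Electrons from the dehydrogenases pass through the flavoprotein subunits ETFA and ETFB to ETFDH, which hands them to ubiquinone; ETFA and ETFDH were lower and ETFB was not called. ETFA was at 58.3, 55.4 and 59.2 FPKM in the sh-NC libraries and 46.5, 43.4 and 43.6 FPKM in the sh-CLGN libraries (log2 fold change -0.37, SE 0.050, limma adjusted p = 0.000386), with a call that was lost under quantile normalization (log2 fold change -0.08). ETFDH was at 4.79, 5.503 and 5.45 FPKM in the sh-NC libraries and 4.72, 3.92 and 4.26 FPKM in the sh-CLGN libraries (log2 fold change -0.24, SE 0.080, adjusted p = 0.0299). The groups of ETFA were well apart, whereas those of ETFDH came near each other, and the ETFDH call was lost with the replicate block (adjusted p = 0.070) and without sh-NC replicate 2 or 3 or sh-CLGN replicate 2 or 3 (adjusted p = 0.070 to 0.11). The ETFDH call was also lost under TPM, quantile and read-total scaling, with no filter, and with a filter on mean FPKM. ETFB had 10.1 ± 0.968 FPKM in sh-NC and 9.73 ± 0.650 FPKM in sh-CLGN (interval -0.23 to 0.14 on the log2 scale), with overlapping libraries. The log2 ratio of ETFA to ETFB within a library was 2.52 ± 0.164 with sh-NC and 2.20 ± 0.131 with sh-CLGN (SD, n = 3, exact permutation p = 0.1).

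Of 7 genes of peroxisomal oxidation, 3 were higher, 2 lower and 2 not called, beside 26.7% higher and 39.0% lower over all tested genes. EHHADH and HSD17B4 encode the L- and D-bifunctional proteins, which carry out hydration and dehydrogenation by different stereochemical routes, and they moved in opposite directions. EHHADH was at 9.49, 9.52 and 9.19 FPKM in the sh-NC libraries and 12.1, 13.1 and 14.1 FPKM in the sh-CLGN libraries (log2 fold change 0.44, SE 0.062, limma adjusted p = 0.000454). HSD17B4 was at 21.4, 22.1 and 22.4 FPKM in the sh-NC libraries and 15.9, 14.9 and 15.1 FPKM in the sh-CLGN libraries (log2 fold change -0.49, SE 0.050, adjusted p = 7.72e-05). The groups did not overlap for either gene, and both calls held under every alternative examined, with HSD17B4 at its smallest, -0.27, under quantile normalization.

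SCP2, a sterol carrier protein with thiolase activity on branched chains, rose from 13.5 ± 0.991 to 17.0 ± 1.18 FPKM (SD, n = 3; log2 fold change 0.32, adjusted p = 0.00518). ECI2, a peroxisomal isomerase, rose from 8.56 ± 0.151 to 9.52 ± 0.252 FPKM (log2 fold change 0.14, adjusted p = 0.0403), a call that was lost with the replicate block (adjusted p = 0.090) and when any library other than sh-NC replicate 3 was left out. The ECI2 call was also lost in limma without trend and in both voom fits. ACAA1, the peroxisomal thiolase, fell from 15.9 ± 0.662 to 12.5 ± 0.839 FPKM (log2 fold change -0.32, adjusted p = 0.00232), with the call lost under quantile normalization and read totals. Against ACAA2, its mitochondrial counterpart, the log2 ratio of ACAA1 was -0.562 ± 0.0481 in sh-NC and -0.854 ± 0.0636 in sh-CLGN (exact permutation p = 0.1). ACOX2 and ACOX3, oxidases for branched chains and bile acid intermediates, were not called, with intervals of -0.34 to 0.05 and -0.07 to 0.39.

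Summed over the genes of each step, FPKM in sh-CLGN was lowest relative to sh-NC for the carnitine shuttle, at 45.5% of control (22.0 ± 1.71 to 9.99 ± 0.284 FPKM, SD, n = 3). The acyl-CoA dehydrogenases summed to 66.4% of control, ketone body enzymes to 67.4%, and activation and uptake to 74.6%. Mitochondrial hydration to thiolysis summed to 78.3%, electron transfer to 80.2%, and regulators and fasting targets to 91.5%. Sums follow the most abundant genes. In sh-NC, CPT1A made up 18.5 of the 22.0 FPKM of the carnitine shuttle. ACADVL made up 73.6 of the 103 FPKM of the dehydrogenases, of which ACADM and ACADSB were not called. The peroxisomal genes summed to 98.2% of control (78.8 ± 2.38 to 77.4 ± 1.07 FPKM), with overlapping libraries in the deposited FPKM. All 36 genes together went from 703 ± 7.67 to 544 ± 10.7 FPKM (77.4% of control), beside 91.5% for the FPKM of all genes. After scaling by read totals the same sums were 52.1% for the carnitine shuttle, 76.1% for the dehydrogenases, 89.7% for hydration to thiolysis, 112% for the peroxisomal genes and 88.6% for all 36 genes. That scaling moves all genes of a library alike.

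**Figure D4:**
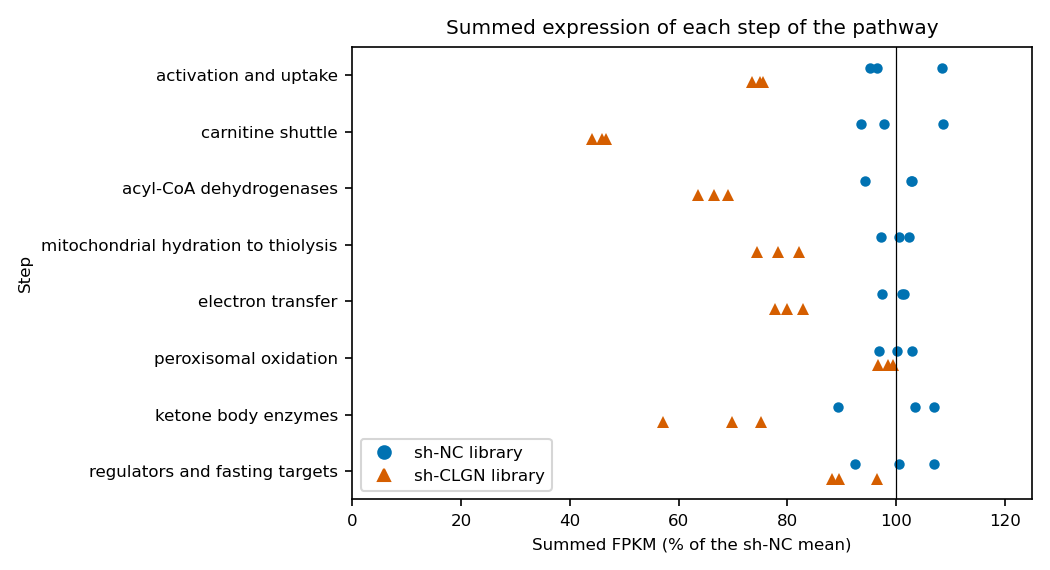
Summed FPKM of the genes of each step in each library, in percent of the sh-NC mean of that step. Circles are sh-NC and triangles sh-CLGN libraries. In the deposited FPKM the carnitine shuttle is lowest at 45.5% of control, and the peroxisomal step is at 98.2% with overlapping libraries. Under read totals, not drawn here, the peroxisomal step is at 112%.

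Of the ketone body enzymes, ACAT1, the mitochondrial acetoacetyl-CoA thiolase, was tested and lower. ACAT1 was at 8.92, 10.5 and 10.9 FPKM in the sh-NC libraries and 7.18, 6.60 and 5.38 FPKM in the sh-CLGN libraries (log2 fold change -0.59, SE 0.11, limma adjusted p = 0.00163). The groups were apart, but each was spread more widely than those of most other genes in the list. BDH1, which interconverts acetoacetate and 3-hydroxybutyrate, was below the filter and moved the other way. Its reads numbered 35, 24 and 21 in the sh-NC libraries and 87, 87 and 73 in the sh-CLGN libraries, with every sh-CLGN library above every sh-NC library.

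Genes below the filter were compared on the reads recovered from the FPKM values, with limma's voom on the 22042 genes with at least 10 reads in sum, an analysis added after the data were seen. It called 5754 genes higher (26.1%) and 5593 lower (25.4%). A read was found for 23578 to 23793 genes in the sh-NC libraries and for 26814 to 27006 genes in the sh-CLGN libraries. The share called higher among genes of low level alone was not computed, so higher calls of such genes have no background of their own. BDH1 was higher by 1.48 on the log2 scale (SE 0.24, voom adjusted p = 9.95e-06), at a level of 0.547 ± 0.0452 FPKM in sh-CLGN. Of the 35 members in that analysis, 5 were higher and 19 lower, and 7 passed both thresholds: SLC27A2, ACSL3, CPT1A and FGF21 lower, and PDK4, BDH1 and PPARGC1A higher. The share of all genes past both thresholds was not computed for this fit, so the 7 cannot be set against a background.

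The last 6 genes are regulators of the pathway and genes known to respond to fasting. PPARA, the receptor itself, was at 5.60, 6.51 and 6.06 FPKM in the sh-NC libraries and 4.02, 4.61 and 4.498 FPKM in the sh-CLGN libraries (log2 fold change -0.39, SE 0.074, limma adjusted p = 0.00204). PPARGC1A, a coactivator of mitochondrial gene expression, was below the filter with 70, 53 and 54 reads in the sh-NC libraries and 152, 144 and 159 in the sh-CLGN libraries (voom log2 fold change 1.20, SE 0.17, adjusted p = 1.46e-06). The receptor was thus lower and its coactivator higher, with no overlap of libraries in either case.

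PDK4, a kinase that holds back pyruvate dehydrogenase and so spares glucose, was at 0.238, 0.227 and 0.286 FPKM in the sh-NC libraries and 1.32, 1.31 and 1.21 FPKM in the sh-CLGN libraries, from 15, 15 and 20 and 101, 97 and 88 reads. The mean was 5.10-fold higher in FPKM (limma log2 fold change 0.87, SE 0.094, adjusted p = 0.000113; voom log2 fold change 2.32, SE 0.26). With a pseudocount of 0.1 in place of 1 the limma value was 1.98. FGF21, a fasting hormone made by the liver, was below the filter with 9, 16 and 7 reads in the sh-NC libraries and 6, 3 and 2 in the sh-CLGN libraries (voom log2 fold change -1.61, SE 0.58, adjusted p = 0.0227), and 2 of its sh-CLGN libraries were at or under a floor of 3 reads. ANGPTL4, a secreted inhibitor of lipoprotein lipase, was not called, at 1.78 ± 0.478 FPKM in sh-NC and 1.58 ± 0.241 FPKM in sh-CLGN (interval -0.42 to 0.22 on the log2 scale). CYP4A11, a fatty acid omega-hydroxylase, had 1 read in sh-CLGN replicate 1 and none elsewhere, under the floor in both groups, so that no difference was detectable at this depth.

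Because a hairpin can act on other transcripts through its seed, the 3′ untranslated regions of the list were read for the heptamer TACCACA, which would pair with the hairpin's guide strand. It was found in 824 of 10515 tested genes with such a region (7.84%) and in 1 of 33 list members with one, PPARA. The site is shown with its surroundings on GRCh38, chr22:46242809-46242838, plus strand, with the heptamer in capitals.

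PPARA: atctgttcccttTACCACActgtatatgca

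The adjacent heptamer ATACCAC was found in 618 genes (5.88%) and in no member. Whether the PPARA site was bound was not tested.

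Among 69 other genes of fatty acid oxidation, 53 were tested, with 12 higher, 19 lower and 22 not called and a median log2 fold change of -0.04, close to the -0.08 of all tested genes, of which 26.7% were higher and 39.0% lower. ACSM1, 1 of the 12, passed the filter only through sh-CLGN and had to be higher; without it the median was -0.07. Among those with the smallest adjusted p were ABCD3, SLC25A20, CRAT and MMAB. ABCD3, a peroxisomal transporter of branched-chain and bile acid intermediates, rose from 5.34 ± 0.708 to 21.2 ± 0.815 FPKM (SD, n = 3; log2 fold change 1.82, SE 0.083, limma adjusted p = 2.62e-06). SLC25A20, the carrier that exchanges acylcarnitine for carnitine between CPT1A and CPT2, fell from 31.6 ± 1.35 to 18.5 ± 0.467 FPKM (log2 fold change -0.74, adjusted p = 1.26e-05). CRAT, which forms short-chain acylcarnitines, fell from 43.7 ± 4.13 to 20.8 ± 0.821 FPKM (log2 fold change -1.04, adjusted p = 1.46e-05), and MMAB, which supplies the cobalamin cofactor for propionate breakdown, from 9.29 ± 0.312 to 5.16 ± 0.188 FPKM (log2 fold change -0.74, adjusted p = 1.93e-05).

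Of 38 other PPARA targets and regulators, 33 were tested, with 4 higher, 21 lower and 8 not called and a median of -0.34. Both thresholds were passed by 6, all lower (background 3.19% lower and 3.09% higher). The calls of ALDH9A1, HILPDA, NCOR1, PLIN5, PPARD, PPARGC1B and RETSAT were lost under at least 1 alternative. PRKAA2 (higher) and PPARGC1B (lower) passed the filter through 1 group only, and without them 3 were higher and 20 lower of 31, beside the same background of 26.7% and 39.0%. Some of these genes answer to other regulators as well. TXNIP, which restrains glucose uptake, fell from 87.3 ± 0.963 to 32.8 ± 0.726 FPKM (log2 fold change -1.38, adjusted p = 7.36e-07). The fatty acid desaturases FADS1 and FADS2 fell by similar amounts, with log2 fold changes of -1.23 and -1.18 (adjusted p = 1.24e-06 and 3.33e-06). PLIN2, the coat protein of lipid droplets, had -1.05 (adjusted p = 5.03e-06). G0S2, an inhibitor of the lipase that releases fatty acids from droplets, fell from 10.1 ± 1.70 to 0.747 ± 0.296 FPKM (log2 fold change -2.66, adjusted p = 6.03e-06).

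Of 19 genes of peroxisome biogenesis 18 were tested, with 2 higher, 9 lower and 7 not called and a median of -0.23, against the background of 26.7% higher and 39.0% lower. PEX14, PEX6, PEX26 and PEX2 were among those with the smallest adjusted p, and all 4 were lower. PEX14, part of the docking complex for import, had a log2 fold change of -0.79 (adjusted p = 2.10e-05), and PEX6 and PEX26, which recycle the import receptor, had -0.75 and -0.47 (adjusted p = 9.05e-05 and 0.000390). PEX2, a ubiquitin ligase of the same cycle, had -0.66 (adjusted p = 0.000619).

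**Figure D5:**
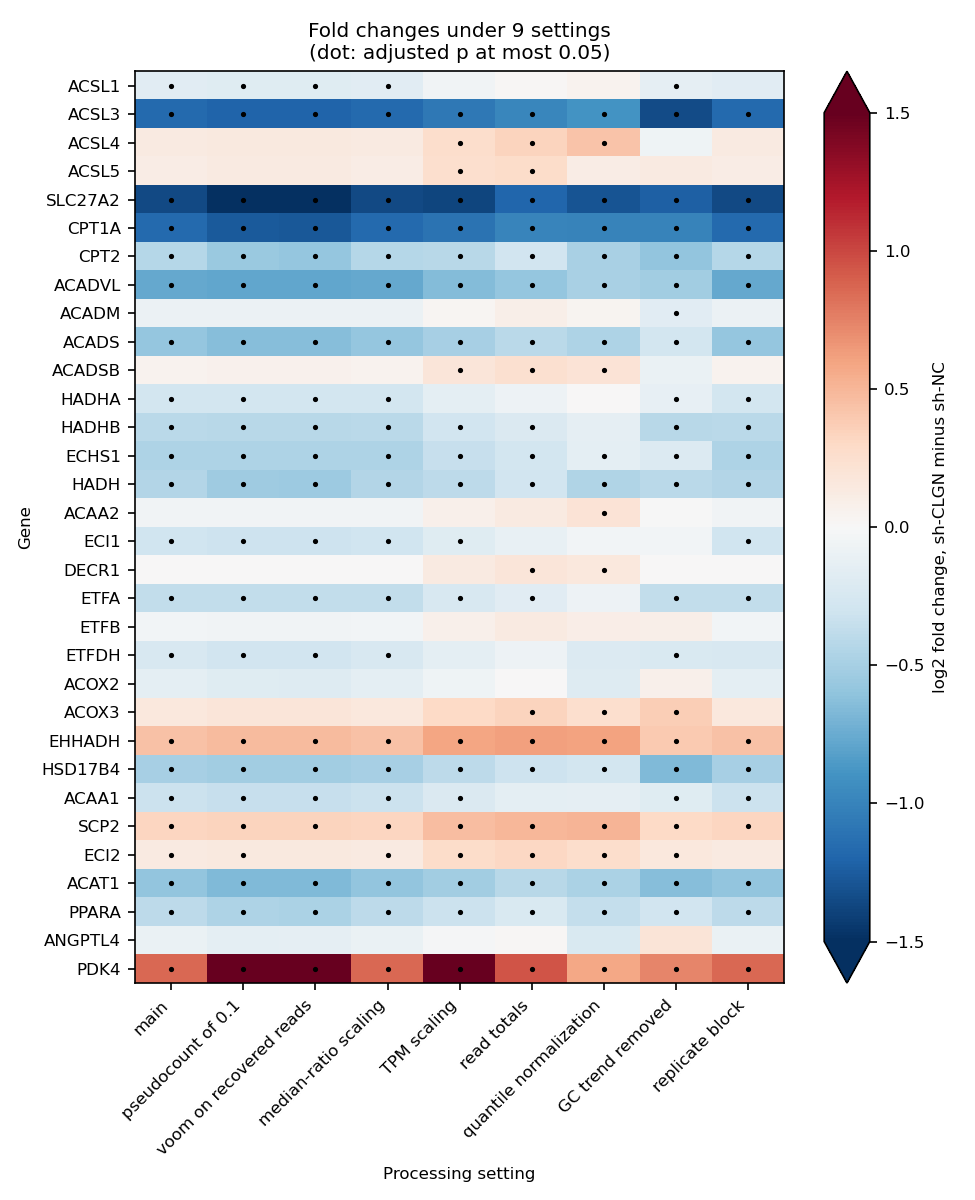
Log2 fold change of the 32 tested genes, sh-CLGN minus sh-NC, under the main setting and 8 alternatives, with blue for lower, red for higher and a dot where the adjusted p was at most 0.05. SLC27A2, ACSL3, CPT1A and ACADVL are blue with a dot in every column and EHHADH, SCP2 and PDK4 red with a dot in every column, whereas ACSL1, HADHA, ACADM, ACAA2 and ETFB are among those that change colour. PDK4 passed the main filter only through the sh-CLGN libraries, so its red colour was fixed in advance.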

How the data were processed

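The 6 Hep-G2 libraries (sh-NC, n = 3; sh-CLGN, n = 3) were made with a NEBNext Ultra kit. The authors deposited FPKM values for each gene, beside its length and position; HISAT2 2.0.5, featureCounts and GRCh38 are named in the submitters' processing notes, while the annotation release and strand setting are not given in the sources used here. All 58735 gene positions equalled GENCODE 29. Columns were matched to samples by name, KD standing for sh-CLGN. FPKM times gene length gave whole reads for 100% of values in each library, within 0.01 of a read. A single read at 1 kb of length equals 0.0589 to 0.0717 FPKM, and 30 of the 36 genes had over 100 reads in every library. Floors of 3 reads cover counting error only.

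The comparison used limma 3.58.1 in R 4.3.3 (eBayes with trend, log2(FPKM + 1), at least 1 FPKM in at least 3 libraries, no covariate), with Benjamini-Hochberg adjustment over 13074 genes. Ratios within a library were compared by two-sided exact permutation tests. All pairs of libraries differed by more than sampling noise (chi-square per gene 2.04 to 7.14 within groups, at least 55.6 between groups). The members and gene lists were chosen with earlier results of these data known. All members are named; values per library are given for members past both thresholds and for the 2 of each step with the smallest adjusted p, and HADHA and HADHB were added after their values were seen as subunits of 1 enzyme; of each other list the 5 called genes with the smallest adjusted p are named, except for some that are not reported here. Alternatives were no filter, a filter on mean FPKM of 0.1, a pseudocount of 0.1, median-ratio, TPM, quantile and read-total scaling, limma without trend, voom on the recovered reads, a GC trend removed per library (lowess span 0.3), the replicate number as a block, each library left out in turn, and, added after the data were seen, voom on all genes with 10 reads or more. The limma procedure was tested on simulated data. Heptamers were searched in 3′ untranslated regions of at least 50 bases of the transcript with the longest coding sequence. The rest used Python 3.11.15 (scipy 1.17.1, pandas 2.3.3, numpy 2.4.6, matplotlib 3.10.9).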

Additional observations from a re-analysis of the deposited data

How the results depend on the processing

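Of the 22 called members, 14 kept their direction and call under all 18 alternatives, and ACSL1, HADHA, HADHB, ECI1, ETFA, ETFDH, ACAA1 and ECI2 lost the call or changed sign under at least 1; each of the 10 members not called changed sign or was called under at least 1. PDK4, 1 of the 14, passed the main filter only through sh-CLGN and had to be higher. The number of higher members was 4 in the main analysis, 7 under TPM, and 9 under quantile normalization or read totals, and that of lower members was 18 and fell to 11 under quantile normalization. These scalings moved the median log2 fold change of all tested genes from -0.08 to 0.03 (TPM), -0.02 (quantile) and 0.08 (read totals). Members past both thresholds numbered 3, against 1 under quantile normalization, 1 under read totals and 7 with voom on all genes with 10 reads or more. The 4 added were PDK4, which also passed with voom on the main genes (4 in all), and BDH1, PPARGC1A and FGF21, which are below the main filter. The share of all genes past both thresholds was computed for the main setting only. Under quantile normalization and read totals SLC27A2 was the member left, with CPT1A at -0.997 and -0.988 and ACSL3 at -0.90 and -0.98. The cause of the other changes was not tested.

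Log2 fold changes that changed sign were, under quantile normalization, ACSL1 (0.050), ACADM (0.037), HADHA (0.0063), ACAA2 (0.20, limma adjusted p = 0.013) and ETFB (0.10); under read totals, ACSL1 (0.015), ACADM (0.091), ACAA2 (0.13), ETFB (0.13), ACOX2 (0.0019) and ANGPTL4 (0.022); under TPM, ACADM (0.033), ACAA2 (0.071) and ETFB (0.074); and with the GC trend removed, ACSL4 (-0.059), ACADSB (-0.10), ETFB (0.083), ACOX2 (0.072) and ANGPTL4 (0.19). With 1 library left out, log2 fold changes ranged from -0.017 to 0.030 for DECR1, from -0.11 to 0.011 for ETFB and from -0.22 to 0.026 for ANGPTL4, none of them called in the main analysis; counts of members stayed between 3 and 5 higher and between 16 and 18 lower.

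The replicate numbers do not pair the libraries (correlations of deviations -0.02, -0.05 and -0.15). With the replicate number as a block, 3 members were higher and 16 lower, and the calls of ECI2, ACSL1 and ETFDH were lost (log2 fold changes 0.14, -0.17 and -0.24, limma adjusted p = 0.090, 0.065 and 0.070); no other call changed. Depth limits FGF21 and CYP4A11, with at most 16 reads in a library.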

Other observations

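A pair of further enzymes of ketone body and acetoacetyl-CoA metabolism, named here after their values were seen, had the following levels. OXCT1, which activates ketone bodies for use outside the liver, was at 3.85 ± 0.458 FPKM in sh-NC and 2.82 ± 0.244 FPKM in sh-CLGN (SD, n = 3; log2 fold change -0.34, SE 0.090, limma adjusted p = 0.0106), a call that was lost under read totals, where the log2 fold change was -0.19. ACAT2, the cytosolic thiolase, was not called, at 33.6 ± 1.42 FPKM in sh-NC and 36.05 ± 1.77 FPKM in sh-CLGN.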
